A study of Mus musculus with 4 samples.

Results

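The cells described here are the non-cycling barcodes with a microglial gene signature in the library of CD45+ cells taken from the injured mouse spinal cord 3 days post injury (dpi). A barcode was a member if it held at least 600 genes, at most 10% mitochondrial counts, and at least 1 unique molecular identifier (UMI, the tag that marks 1 captured RNA molecule) of at least 4 of the 9 microglial genes Tmem119, P2ry12, P2ry13, Sall1, Siglech, Gpr34, Olfml3, Sparc and Slc2a5. Members also had to hold fewer than 3 of the 8 cell cycle genes Mki67, Top2a, Cenpf, Prc1, Pclaf, Nusap1, Hist1h1b and Ube2c. At 3 dpi 753 barcodes met the rule, of 9528 in that library that passed the filter on genes and mitochondrial counts and of 31660 barcodes in the series. The rule read these 17 genes from the same counts, so their values below describe the choice and support nothing.

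The mice were 3 months old, of both sexes and on the C57BL/6 background, with no other allele or transgene in the labels of these libraries. Sham mice had a laminectomy only, and injured mice had in addition a moderate contusion of the exposed cord. Each of 4 conditions gave 1 library. Sham cords were dissociated by the standard protocol or in the presence of actinomycin D (ActD, an inhibitor of transcription, in a procedure called Act-seq), and cords at 3 and 14 dpi in the presence of ActD. Live CD45+ cells were sorted from the segment around the lesion and sequenced with 10× Chromium 3′ kits. The methods name 30 mice, 15 of them male, in 3 groups, and the number of mice pooled in each library is not given in the sources used here. With 1 library per condition there was no spread between replicates to judge a difference by, and no p-value is given. Intervals are 95% intervals, exact Poisson for levels, exact conditional for ratios and Clopper-Pearson for shares, and they cover counting error only.

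Microglia are the resident macrophages of the central nervous system. In the resting cord they are recognised by a set of homeostatic genes, which includes the purinergic receptor P2ry12, the surface protein Tmem119, the fractalkine receptor Cx3cr1 and the transcription factor Sall1. After injury microglia retract their processes, take up myelin and blood products, divide, and lower many of these genes, while blood monocytes enter the lesion and become macrophages. Both kinds of cell then share much of their phagocytic programme.

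The 3 dpi library held 10763 barcodes and 125270696 UMIs, and the ActD sham library, with which it was compared, held 2439 barcodes and 27447471 UMIs. The 14 dpi library held 11631 barcodes and 129935880 UMIs, and the standard sham library 6827 barcodes and 60412094 UMIs. The same rule found 1789 cells in the ActD sham library, 5179 at 14 dpi and 3498 in the standard sham library. As a share of barcodes that passed the filter, members were 81.2% (79.5 to 82.8) of the ActD sham library, 61.0% of the standard sham library, 7.90% (7.37 to 8.46) at 3 dpi and 47.6% at 14 dpi. A share depends on how many other CD45+ cells were in the sort, so it gives no number of microglia per cord. Members at 3 dpi were deep cells, with a median of 18360 UMIs against 9571 in sham. Mitochondrial genes held 4.36% of the UMIs summed over members at 3 dpi and 2.52% in sham. By the file headers, Cell Ranger 3.0.1 made the 3 dpi and standard sham files and Cell Ranger 3.1.0 the other two, so 3 dpi was compared with an ActD sham library of another version. The standard sham library, of the same version as 3 dpi, is given beside it for several genes, though it was made without ActD. The 3 dpi library shared 11 barcode sequences with the ActD sham library, 36 with 14 dpi and 22 with the standard sham library, of which 0, 2 and 1 were members in both.

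The label of microglia held for only some of these cells. In the ActD sham library the 9 genes split the cells cleanly, since 1165 non-cycling cells held all 9 and 34 held exactly 4. At 3 dpi there was no gap at the threshold. The numbers of non-cycling cells with 2, 3, 4, 5, 6, 7, 8 and 9 of the genes were 1788, 879, 343, 115, 70, 97, 89 and 39. Cells with 4 or 5 genes made up 458 of the 753 members (60.8%) at 3 dpi and 64 of 1789 (3.58%) in sham. Just inside the threshold, cells with exactly 4 genes held 185 CPM (UMIs of a gene per 1000000 UMIs, both summed over the cells of a class) of Cx3cr1, which the rule did not use. Just outside it, cells with exactly 3 genes held 127 CPM. Cx3cr1 was at 331, 808, 1305, 1645 and 1617 CPM in cells with 5, 6, 7, 8 and 9 genes. Lyz2 (lysozyme), which monocytes and macrophages make in large amounts, ran the other way, at 20293, 22110, 18373, 8126, 5942, 5558 and 5296 CPM in cells with 3 to 9 genes.

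**Figure D1:**
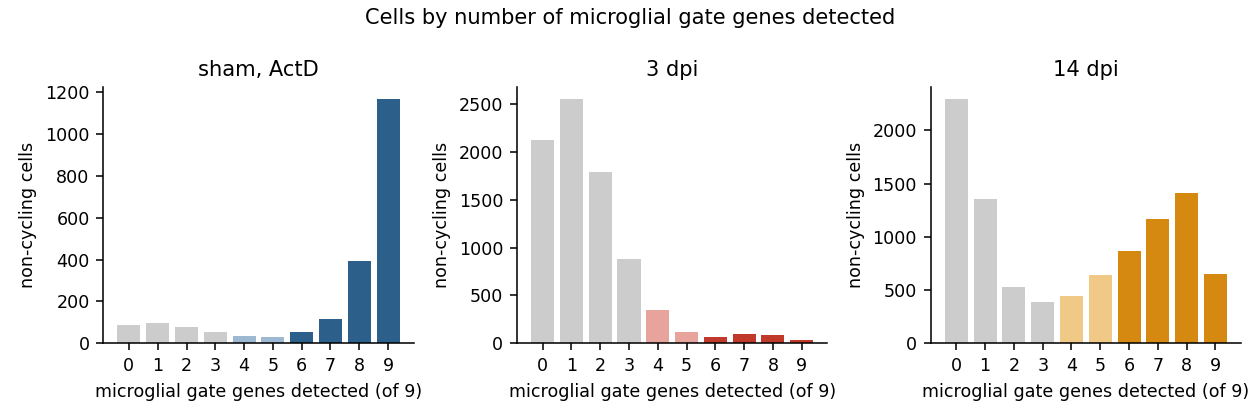
Number of non-cycling cells (vertical axis) by the number of the 9 microglial genes with a UMI (horizontal axis, 0 to 9) in the ActD sham, 3 dpi and 14 dpi libraries. Grey bars are cells below the threshold of 4 genes, light bars cells with 4 or 5, and dark bars cells with at least 6. At 3 dpi the count falls from 879 at 3 genes to 343 at 4 without a gap, while in sham most cells hold 8 or 9.

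Cells with 4 or 5 genes lay within 2-fold of macrophages of the same library for most genes compared. Macrophages were taken as cells with at least 4 of 9 macrophage genes, among them Csf1r, Adgre1, Fcgr1, Mertk, Ms4a7, C1qa, C1qb and Cd68, and at most 1 of the 9 microglial genes, which gave 3330 cells at 3 dpi with a median depth of 7139 UMIs. Of 10868 genes compared, 130 were at least 2-fold higher in cells with 4 or 5 genes than in macrophages (1.20%) and 630 were at least 2-fold lower (5.80%). Of 35 homeostatic genes outside the rule 8 were higher and 0 lower. Against cells with at least 6 genes, 380 of 9460 genes were higher in cells with 4 or 5 (4.02%) and 621 lower (6.56%). Cells with 4 or 5 genes had a median of 19387.5 UMIs and cells with at least 6 a median of 17169. When every cell was thinned to 3000 UMIs before the rule was applied, 383 cells were members, and 225 of them were members at full depth. B cells, which do not make most microglial and macrophage genes, show what free RNA and mixed droplets can add. They were taken as barcodes with at least 2 UMIs of Cd79a and numbered 204 at 3 dpi with a median depth of 2993 UMIs. A cleaner set of 103 held no Itgam UMI and fewer than 2 of the microglial genes (median depth 2547), so it is low in those genes by choice. The 9 genes summed to 866 CPM in B cells and 169 CPM in the cleaner set, against 469 CPM in cells with 4 or 5 genes and 3155 CPM in cells with at least 6. For these reasons a stricter set was formed of the 295 members with at least 6 of the 9 genes (3.096% of cells that passed the filter, 2.76 to 3.46). Counts against sham are given for the 753 members and mostly for the stricter set too. The comparisons with macrophages, cycling cells and 14 dpi are given mainly for the stricter set, with gene counts by the rule in the last section. The stricter set held 1725 cells in sham, 4101 at 14 dpi and 3278 in the standard sham library.

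**Figure D2:**
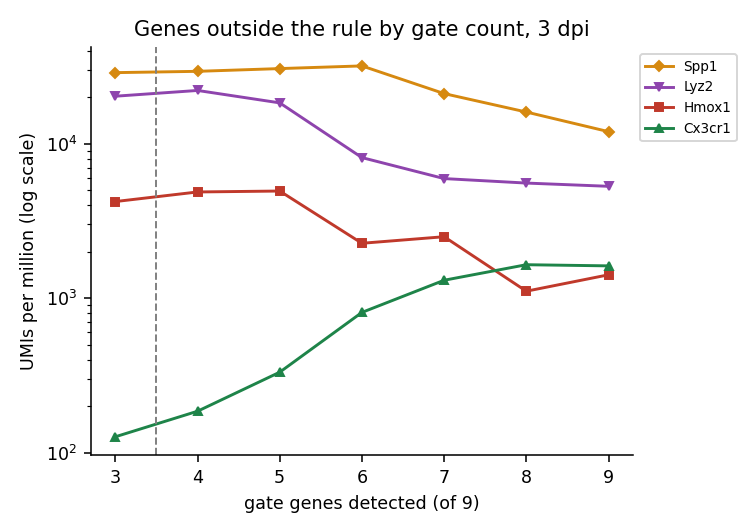
Levels (vertical axis, log scale, CPM) of Spp1, Lyz2, Hmox1 and Cx3cr1 in non-cycling 3 dpi cells by the number of microglial genes detected (horizontal axis, 3 to 9), 1 point per class and gene. The dashed line marks the threshold between 3 and 4 genes, across which Cx3cr1 moves from 127 to 185 CPM and Lyz2 from 20293 to 22110 CPM.

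Markers of monocyte-derived macrophages were counted in both sets. The list of 15 such genes summed to 6006 CPM in the 753 members, 3334 CPM in the 295 cells, 9681 CPM in 3 dpi macrophages and 271 CPM in sham microglia. It summed to 5310 CPM in 3 dpi B cells and 1909 CPM in the cleaner B cells, so the stricter set lay between both sets of B cells. After thinning to 3000 UMIs, at least 3 of the 15 genes were found in 171 of 294 cells of the stricter set (58.2%, 52.3 to 63.9), in 406 of 439 cells with 4 or 5 genes (92.5%), in 2363 of 2497 macrophages (94.6%) and in 21 of 1657 sham cells (1.27%). At 14 dpi the share was 365 of 4060 cells (8.99%). The 10 markers of border macrophages summed to 4069 CPM in members, 1726 CPM in the stricter set, 4442 CPM in macrophages, 2998 CPM in B cells and 775 CPM in the cleaner B cells, with the platelet factor Pf4 most abundant. The 12 neutrophil markers, led by S100a8, were lower at 3 dpi than in sham. They summed to 1187 against 3493 CPM in members and to 622 against 1977 CPM in the stricter set. Neuronal markers summed to 6.25 CPM, T and NK cell markers to 90.8 CPM, B cell markers to 80.9 CPM, oligodendrocyte markers to 87.0 CPM and astrocyte markers to 44.4 CPM in members. The 5 red cell genes summed to 27.8 CPM in members and to 1.94 CPM in the stricter set, and all 5 were at 0 in sham. The markers of dendritic cells summed to 88.3 CPM, of which 69.4 CPM was Siglech, which is a gene of the rule. The sums of fibroblast and endothelial markers were 24.5 and 11.3 CPM.

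Sex was read from each cell's Xist and Y-linked UMIs. Of the 753 members 372 were called male and 135 female, so 73.4% of called cells were male, and in the stricter set 172 were male and 25 female (87.3% male). Sham members were 45.3% male (655 male, 792 female), members at 14 dpi 46.2% and 3 dpi macrophages 58.8%. The 3 dpi microglia therefore came from a different balance of the sexes than those of sham, and a comparison of the libraries also compares this balance. Values within each sex are given below for Spp1, Ccl12 and several lists. Other log2 ratios of the stricter set to sham also moved with sex. That of Il1b was 6.92 in male and 4.79 in female cells, and that of Tnf 3.85 and 2.67.

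Genes were compared with sham if both classes together held at least 50 of their UMIs. Of 11326 such genes 1182 were at least 2-fold higher in the 753 members (10.4%) and 4274 were at least 2-fold lower (37.7%), with a median log2 ratio over all genes of -0.68. In the stricter set 905 of 10760 genes were higher (8.41%) and 3606 lower (33.5%), with a median of -0.63. With TMM scaling, which sets the bulk of genes near each other, log2 ratios were 0.56 higher in members and 0.43 higher in the stricter set. The count was then 2018 higher and 2274 lower in members, so 47.0% of called genes were higher, against 21.7% with scaling by total UMIs. In the stricter set it was 1479 higher and 1967 lower (42.9% higher, against 20.1%). Every log2 ratio below is on the scale of total UMIs, and 3′ counts carry no correction for gene length. Genes and lists were read against these backgrounds.

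The homeostatic programme was low. Of 36 homeostatic genes outside the rule, 33 were at least 2-fold lower in members and 0 were higher, with a median log2 ratio of -2.28. In the stricter set 27 were lower and 0 higher, with a median of -1.597. TMM scaling left 19 of them lower in the stricter set. The 9 genes of the rule were all lower by the same measure in members, and 8 of 9 were in the stricter set, though here the choice of cells sets a floor under them.

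P2ry12 (mm10, chromosome 3, 59216272 to 59262871, minus strand), the receptor by which microglia sense ADP, was at 2115 CPM in ActD sham, 1042 CPM in standard sham, 108 CPM at 3 dpi and 327 CPM at 14 dpi in cells of the rule. In the stricter set it was at 2179 CPM in ActD sham, 211 CPM at 3 dpi and 384 CPM at 14 dpi, a log2 ratio of 3 dpi over sham of -3.37 (-3.45 to -3.29). Tmem119 (chromosome 5, 113793729 to 113800516, minus strand) was at 1213, 942, 159 and 276 CPM in ActD sham, standard sham, 3 dpi and 14 dpi. Its log2 ratio was -2.93 in members and -2.05 (-2.12 to -1.98) in the stricter set. Sall1 (chromosome 8, 89027235 to 89044162, minus strand), which holds microglial identity, was at 282, 131, 25.01 and 82.3 CPM in the same order. All 3 genes were lower at 3 dpi than in the other 3 libraries and were intermediate at 14 dpi, and being genes of the rule they are given as a description.

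Cx3cr1 (chromosome 9, 119901616 to 120069879, minus strand) was at 4858 CPM in ActD sham, 1836 CPM in standard sham, 640 CPM at 3 dpi and 1983 CPM at 14 dpi, with log2 ratios of 3 dpi over ActD sham of -2.92 in members and -1.93 (-1.96 to -1.89) in the stricter set. Cst3, which encodes the protease inhibitor cystatin C and was the most abundant gene of the list in sham, was at 49694, 48462, 2185 and 19414 CPM in the same order, and in the stricter set it was 13.4-fold lower than in sham. The selectin ligand Selplg was 11.6-fold lower in members and 7.07-fold lower in the stricter set. Csf1r, the receptor for the survival factors of microglia, was at 3648 CPM in sham and 1022 CPM at 3 dpi in the stricter set (log2 ratio -1.84).

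Other genes of the list kept more of their level. Fcrls, an Fc receptor-like gene that marks microglia over monocytes, was at 976 CPM in sham and 1118 CPM at 3 dpi in the stricter set, a log2 ratio of 0.20 (0.16 to 0.24), but at 966 and 564 CPM by the rule (-0.78). C1qa, a subunit of the complement starter C1q, had log2 ratios of -1.01 in members and -0.42 in the stricter set, the latter near 0 with TMM scaling. The lipid sensor Trem2 had ratios of -0.96 and -0.68. Of 20 microglial transcription factors tested, 11 were lower and 4 higher in members. Mef2a, one of the MEF2 factors of microglia, was at 751 CPM in sham and 200 CPM at 3 dpi (-1.91). Of 12 purinergic genes tested 6 were lower and 3 higher.

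**Figure D3:**
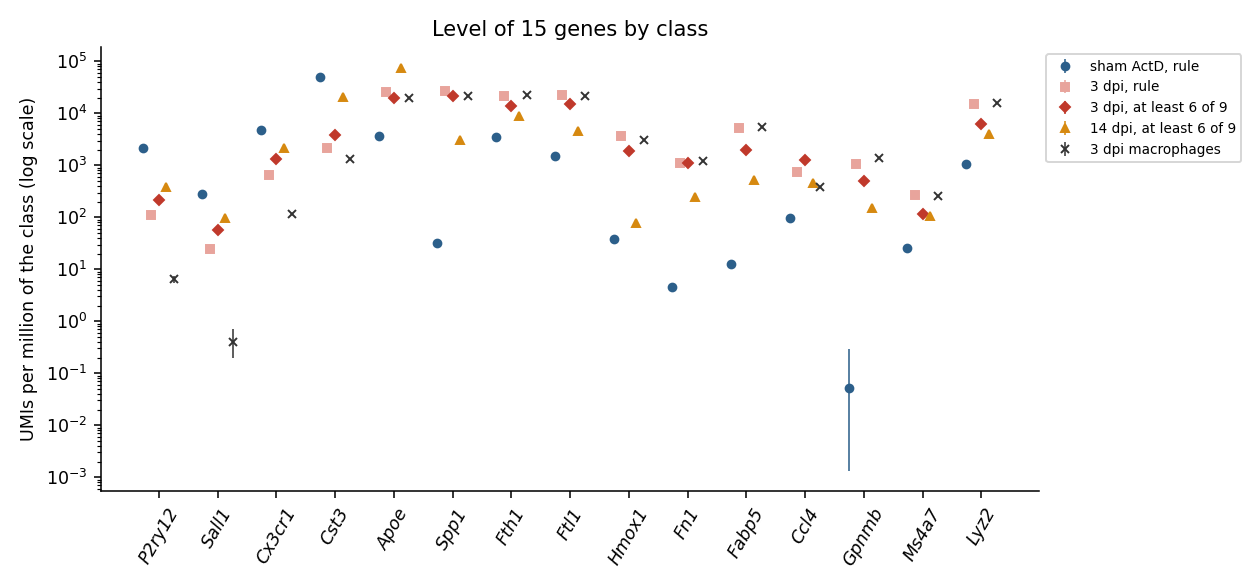
Levels (log axis, CPM) of 15 genes in 5 classes, which are sham and 3 dpi cells of the rule, 3 dpi and 14 dpi cells with at least 6 of the 9 genes, and 3 dpi macrophages, with 95% Poisson bars. Homeostatic genes are highest in sham, while Spp1 (32.1 CPM in sham, 26458 CPM at 3 dpi by the rule) and Hmox1 (38.9 and 3745 CPM) are high in all 3 dpi classes. In 3 dpi cells with at least 6 of the 9 genes they are at 21149 and 1894 CPM.

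Spp1 (chromosome 5, 104435118 to 104441050, plus strand) encodes osteopontin, a secreted matrix protein that macrophages make in wounds. It was at 32.1 CPM in ActD sham, 65.4 CPM in standard sham, 26458 CPM at 3 dpi and 3871 CPM at 14 dpi. Relative to ActD sham, the log2 ratio at 3 dpi was 9.69 (9.57 to 9.80) in members, or 823-fold, and 9.32 (9.21 to 9.44) in the stricter set, or 640-fold. This ratio moved with sex. In male cells of the stricter set Spp1 went from 69.8 to 19243 CPM (8.11, 7.97 to 8.24). In female cells it went from 18.1 to 20375 CPM (10.1), the value at 3 dpi resting on 25 cells. In sham 56 of 1725 cells of the stricter set held a UMI of Spp1 and the remaining 1669 held none, and 43.1% of the sham UMIs were in 1 cell. At 3 dpi all 295 cells held one. Per 10000 UMIs of a cell, the stricter set had 25.7 of Spp1 at its 10th percentile, 63.0 at the median and 411 at the 90th percentile. The median in 3 dpi macrophages was 66.6, and that of cells with 4 or 5 genes was 179. Spp1 was therefore not a gene that separated these microglia from macrophages.

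Hmox1 (chromosome 8, 75093621 to 75100589, plus strand) encodes heme oxygenase 1, which breaks down heme into biliverdin, iron and carbon monoxide. It was at 38.9 CPM in ActD sham, 215 CPM in standard sham, 3745 CPM at 3 dpi and 84.8 CPM at 14 dpi. Relative to ActD sham it was 96.3-fold higher in members and 51.4-fold in the stricter set, where its log2 was 5.68 (5.57 to 5.80). The level was 1894 CPM in the stricter set and 3073 CPM in macrophages. Among cells its median was 5.002 per 10000 UMIs in the stricter set, 15.4 in cells with 4 or 5 genes, 8.88 in macrophages and 0 in sham.

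Spp1 and Hmox1 were also found in the B cells. Thinned to 1000 UMIs, 98.6% of the stricter set and 99.5% of B cells held a UMI of Spp1. The shares were 44.7% and 48.5% for Hmox1. The shares of cells with a UMI of these genes were thus below those of B cells in the stricter set and are read as background. In all members they were 99.2% and 61.8%. Mean UMIs per cell differed more, also between B cells and the cleaner B cells. The mean per cell was 406 for Spp1 in the stricter set (median 99), 157 in B cells (median 15) and 13.3 in the cleaner B cells (median 13). For Hmox1 the means were 36.4, 18.2 and 1.505. The share for Fn1 was 56.6% in the stricter set and 34.3% in B cells, and that for Ccl4 was 50.8% and 20.6%.

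Other genes of heme and iron handling lay on both sides. Of 20 tested 8 were higher and 5 lower in members, and 7 and 6 in the stricter set. The lower shares were under those of all genes (37.7% and 33.5%). The ferritin chains, which store iron, were abundant and higher, with Ftl1 at 1541 CPM in sham and 22508 CPM at 3 dpi (log2 ratio 3.87, and 3.33 in the stricter set) and Fth1 at 3492 and 21956 CPM (2.65 and 2.05). Both have processed copies in the genome, whose reads the counting may not separate. Slc48a1, which moves heme out of the phagolysosome, was at 22.5 and 199 CPM, and Blvrb, a biliverdin reductase, at 62.5 and 201 CPM. Slc40a1 (ferroportin), the iron exporter, was lower, at 77.2 CPM in sham and 10.6 CPM at 3 dpi (-2.86, and -2.34 in the stricter set). Of 25 genes of the oxidative stress response, 16 were higher and 0 lower in members, and 12 of 24 in the stricter set. Prdx1, a peroxiredoxin, was at 215 CPM in sham and 856 CPM at 3 dpi in the stricter set (1.99). Srxn1, which restores peroxiredoxins, was 14.1-fold higher in members and 9.73-fold in the stricter set. Slc7a11, the cystine importer of glutathione synthesis, was at 8.67 CPM in sham and 88.6 CPM at 3 dpi (3.35, and 2.87 in the stricter set), and Gclm, a subunit of the enzyme that starts that synthesis, was 3.95-fold and 2.16-fold higher. For Slc7a11, Gclm, Ftl1 and Fth1 the mean UMIs per B cell were 66.9%, 59.5%, 46.1% and 52.1% of those per cell of the stricter set. With the cleaner B cells they were 9.37%, 7.14%, 3.89% and 5.31%.

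**Figure D4:**
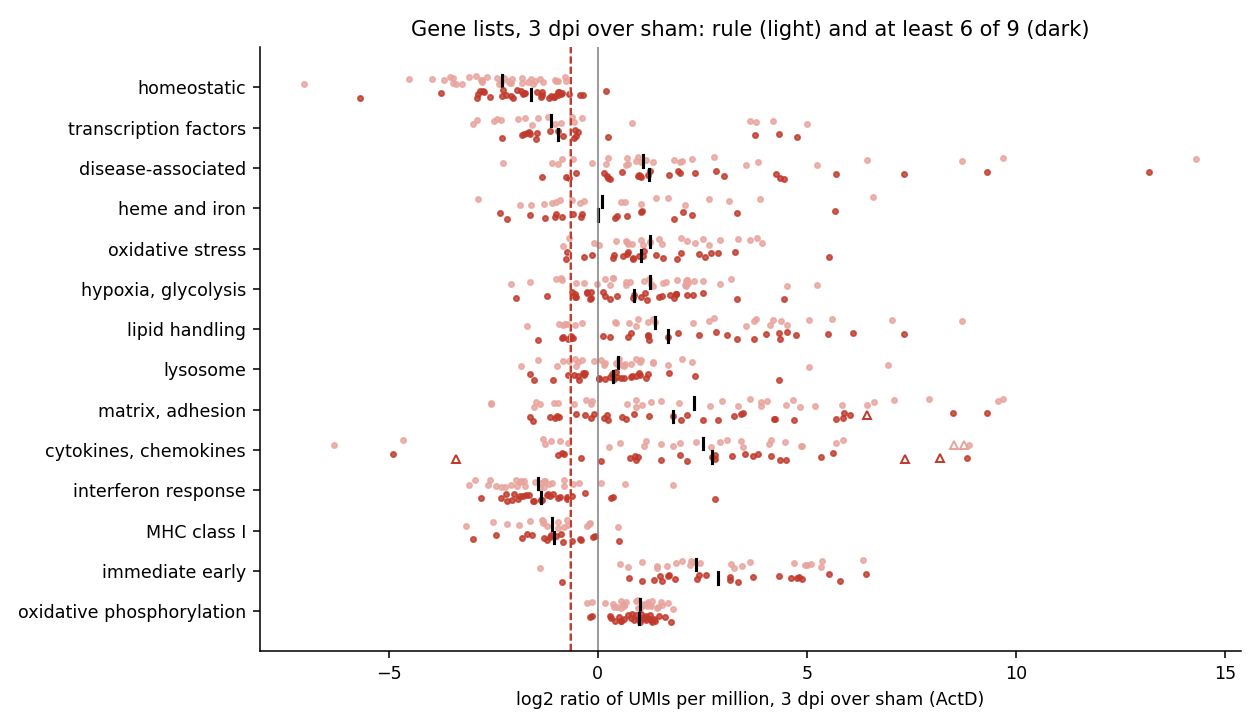
Log2 ratio of 3 dpi over ActD sham (horizontal axis) for the genes of 14 lists, with light points for cells of the rule and dark points for cells with at least 6 of the 9 genes. Black ticks are list medians, the dashed line is the median of all genes tested (-0.68 for the rule), and open triangles are genes at a bound of 3 UMIs. Homeostatic genes lie to the left, and immediate early genes, cytokines and matrix genes to the right.

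Genes of hypoxia and glycolysis were higher as a group. Of 34 tested 19 were higher and 3 lower in members (median log2 ratio 1.24), and 15 and 2 of 32 in the stricter set (0.86). Hilpda, a lipid droplet protein that the hypoxia factor HIF1 induces, was at 8.46 CPM in sham and 194 CPM at 3 dpi (4.52), and at 8.63 and 86.3 CPM in the stricter set (3.32, 3.06 to 3.59). Vegfa, the vascular growth factor, was at 1.13 and 43.0 CPM by the rule, 37.9-fold higher, and at 1.01 and 22.0 CPM in the stricter set (4.44). The mean UMIs of Vegfa per B cell were 131.9% of those per cell of the stricter set, and 20.6% with the cleaner B cells. Pgk1, a glycolytic kinase, was at 65.4 CPM in sham and 289 CPM at 3 dpi in the stricter set (2.14, 2.03 to 2.25), and Ldha, which turns pyruvate into lactate, at 175 and 505 CPM (1.53). The mean of Ldha per B cell was 55.1% of that of the stricter set, and 8.80% with the cleaner B cells. Slc2a1, the glucose transporter, had a log2 ratio of 0.36 in members and -0.25 in the stricter set, the latter above 0 with TMM scaling. Hif1a itself was at 120 CPM in sham and 192 CPM at 3 dpi (0.67), and in the stricter set at 122 and 150 CPM (0.29). When cells with at least 3 macrophage genes were also left out, the log2 ratio of Hif1a was -0.027. The median over all genes in that set was -0.66. Macrophages were higher than the stricter set in Hif1a (252 CPM) and in Hilpda (287 CPM).

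The promoters of 3 of these genes are shown because the list is defined by a factor with a known short core motif. HIF binds the core ACGTG. The windows are RefSeq promoters of build GRCm38.p6, of 300 bases, from 250 before to 50 after the start of the gene, and capitals mark ACGTG or its reverse complement CACGT. Hilpda lies at chr6:29272376-29272675 (plus strand, 1 core), Pgk1 at chrX:106186850-106187149 (plus strand, 2 cores) and Ldha at chr7:46845554-46845853 (plus strand, 5 matches over both strands). The matches of Ldha are not 5 separate places. Each of its 2 copies of the E-box CACGTG counts as 2 matches, as CACGT and as ACGTG.
Hilpda: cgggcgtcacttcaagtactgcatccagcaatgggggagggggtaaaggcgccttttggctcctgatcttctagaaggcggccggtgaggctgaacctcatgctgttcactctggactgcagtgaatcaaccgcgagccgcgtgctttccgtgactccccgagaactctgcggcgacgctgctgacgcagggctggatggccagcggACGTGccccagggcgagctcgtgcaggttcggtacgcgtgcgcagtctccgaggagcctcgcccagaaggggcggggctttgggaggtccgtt
Pgk1: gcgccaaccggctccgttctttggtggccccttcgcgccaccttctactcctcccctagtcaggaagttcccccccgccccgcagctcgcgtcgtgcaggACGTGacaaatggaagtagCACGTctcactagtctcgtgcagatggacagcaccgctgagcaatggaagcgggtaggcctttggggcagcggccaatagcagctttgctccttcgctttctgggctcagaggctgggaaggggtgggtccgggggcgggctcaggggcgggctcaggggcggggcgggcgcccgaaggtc
Ldha: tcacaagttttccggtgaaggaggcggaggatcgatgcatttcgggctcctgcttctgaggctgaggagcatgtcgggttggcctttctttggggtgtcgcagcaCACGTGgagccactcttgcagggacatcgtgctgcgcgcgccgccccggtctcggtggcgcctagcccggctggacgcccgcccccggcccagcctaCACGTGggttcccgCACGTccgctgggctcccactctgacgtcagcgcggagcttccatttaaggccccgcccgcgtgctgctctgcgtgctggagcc

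On either strand the core was in 6447 of 32851 promoters of all genes (19.6%) and in 26 of 42 promoters of the list (61.9%). By gene it was in 24 of 31 matched genes of the list (77.4%), and in 11 of the 14 that were at least 2-fold higher in the stricter set (78.6%), against 21.8% of all 27025 genes. So the higher members of the list held the core about as often as the list as a whole. A match describes the letters of the window and is neither a binding site nor a cause.

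The disease-associated programme, known from microglia around amyloid plaques, was present in part. Of 28 genes tested 15 were higher and 2 lower in members, and 17 and 1 in the stricter set (median 1.22). Apoe (chromosome 7, 19696109 to 19699188, minus strand), the lipid carrier, was at 3686 CPM in ActD sham, 2299 CPM in standard sham, 25327 CPM at 3 dpi and 81092 CPM at 14 dpi. Gpnmb, a lysosomal glycoprotein, had 1 UMI in sham and was at 1057 CPM at 3 dpi in members (log2 ratio 14.32) and 498 CPM in the stricter set (13.19, 10.71 to 18.49). Fabp5, a fatty acid carrier, was at 11.99 CPM in sham and 1931 CPM at 3 dpi in the stricter set (7.33), and Lgals3 (galectin 3) at 24.6 and 1283 CPM (5.70). The mean UMIs per B cell were 56.8%, 68.2% and 72.4% of those per cell of the stricter set for Gpnmb, Fabp5 and Lgals3, and 7.91%, 6.15% and 6.85% with the cleaner B cells. In contrast, Itgax was at 11.2 and 16.6 CPM and the receptor Axl at 38.3 and 42.3 CPM in the same cells. Cst7, a cystatin of lysosomes, was at 23.7 and 55.7 CPM, and Lpl, lipoprotein lipase, at 77.5 and 291 CPM. At 14 dpi these 4 genes were at 76.7, 199, 530 and 677 CPM in the stricter set, so the members of the programme differed in the day at which they were high.

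Genes of lipid handling were higher in 17 of 29 and lower in 1 in members, and in 18 and 1 in the stricter set (median 1.69). The lipid droplet coat gene Plin2 was at 32.0 CPM in sham and 640 CPM at 3 dpi in the stricter set (4.32), the scavenger receptor Msr1 at 7.25 and 193 CPM (4.73), and the cholesterol exporter Abca1 at 110 and 251 CPM (1.19). For Plin2 and Msr1 the mean UMIs per B cell were 62.0% and 57.0% of those per cell of the stricter set. With the cleaner B cells they were 6.00% and 7.86%. Of 31 lysosomal genes 9 were higher and 2 lower in members, and 6 and 3 of 30 in the stricter set. The protease cathepsin B (Ctsb) was at 1781 CPM in sham and 5759 CPM at 3 dpi in the stricter set (1.69), while cathepsin S (Ctss) was at 10705 and 3450 CPM (-1.63). The 30 nuclear genes of oxidative phosphorylation were higher in 15 and lower in 0 in both sets.

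Matrix and adhesion genes were higher in 22 of 36 and lower in 6 in members (median 2.31), and in 19 and 4 of 35 in the stricter set (1.79). Spp1 was the most abundant of them, followed in the stricter set by Lgals3, Lgals1 and Fn1. Fn1 (fibronectin) was at 3.09 CPM in sham, 1110 CPM at 3 dpi and 252 CPM at 14 dpi in the stricter set (8.49, 8.12 to 8.89). Its level was nearly the same at every number of microglial genes, 1136, 1049, 1160, 1278, 1017, 1046 and 1135 CPM in cells with 3 to 9, and was 1233 CPM in macrophages. Thbs1 (thrombospondin 1) was at 5.81, 343 and 12.2 CPM and at 1602 CPM in macrophages, with a mean of 6.59 UMIs per cell of the stricter set, 7.39 per B cell and 0.534 per cleaner B cell. Vim (vimentin), a filament protein of motile cells, was at 33.7 and 869 CPM in sham and 3 dpi, and its mean per B cell was 69.5% of that of the stricter set (8.14% with the cleaner B cells). Timp1, an inhibitor of metalloproteinases, had 0 UMIs in sham cells of the stricter set and was at least 87.2-fold higher at 3 dpi against a floor of 3 UMIs. By the rule it had 1 UMI in sham and 586 at 3 dpi.

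Cytokines and chemokines were higher in 21 of 30 and lower in 5 in members (median 2.52), and in 18 and 2 of 29 in the stricter set (2.73). Ccl4 and Ccl3, chemokines that attract monocytes and T cells, were among those at which the stricter set stood above macrophages. Ccl4 was at 97.6 CPM in ActD sham, 7353 CPM in standard sham, 1278 CPM at 3 dpi and 456 CPM at 14 dpi in the stricter set (log2 ratio to ActD sham 3.71), and 3.34-fold above 3 dpi macrophages. So Ccl4 was higher in the standard sham library than in any library made with ActD. Ccl3 was at 65.6 CPM in ActD sham and 609 CPM at 3 dpi (3.21). The monocyte attractants Ccl2 and Ccl7 were at 24.5 and 434 CPM and at 5.12 and 207 CPM, and both were higher in macrophages (893 and 693 CPM). The mean of Ccl2 per B cell was 66.4% of that of the stricter set, and 5.36% with the cleaner B cells.

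The neutrophil attractants were present at 3 dpi and nearly absent in sham. Cxcl2 was at 1.23 CPM in sham and 561 CPM at 3 dpi in the stricter set (8.84) and at 2765 CPM in macrophages, with a mean of 10.8 UMIs per cell of the stricter set, 11.4 per B cell and 1.31 per cleaner B cell. Cxcl1 had 0 UMIs in sham and was at 46.2 CPM, at least 289-fold higher against a floor of 3 UMIs, with its UMIs in 74 of 295 cells. Il1b was at 5.81 and 288 CPM (5.63), and at 1295 CPM in macrophages, and its mean per B cell was 82.7% of that of the stricter set, and 14.6% with the cleaner B cells. Tnf was at 7.89 and 90.1 CPM (3.51). Il6 ran the other way, with 299 UMIs in 240 sham cells (15.9 CPM) and 3 UMIs in the stricter set at 3 dpi (0.529 CPM, log2 ratio -4.91, -7.20 to -3.35). Ccl12 was at 452 CPM in sham and 342 CPM at 3 dpi (-0.41, near 0 with TMM scaling) in the stricter set, and at 467 and 195 CPM in members (-1.26). Within each sex of the stricter set Ccl12 went opposite ways, from 110 to 379 CPM in male cells (1.79) and from 735 to 211 CPM in female cells (-1.80), the female value at 3 dpi resting on 25 cells.

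Immediate early genes (IEGs), which respond within minutes to stimuli and to dissociation, were higher in 21 of 24 and lower in 1 in members (median 2.36), and in 22 and 0 in the stricter set (2.88). Both libraries were made with ActD. Fos was at 12.8 CPM in ActD sham, 1095 CPM at 3 dpi and 50.2 CPM at 14 dpi in the stricter set (6.41), Egr1 at 17.6, 353 and 35.1 CPM, and Atf3 at 18.5, 520 and 64.9 CPM. Fos was at 5221 CPM in the standard sham library. Macrophages of the 3 dpi library had Fos at 1436 CPM and Atf3 at 445 CPM, so the level was shared by both classes of this library. The list summed to 8583 CPM in the stricter set, 7593 CPM in 3 dpi B cells and 7238 CPM in the cleaner B cells. Sham B cells were at 2193 CPM, and the cleaner ones at 2228 CPM. Whether the IEGs at 3 dpi were set in the tissue or during dissociation was not tested.

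Interferon response genes were lower, and this moved with sex. Of 30 genes tested 23 were lower and 1 higher in members (median -1.44), and 20 and 1 of 29 in the stricter set (-1.37). With TMM scaling 14 and 13 were lower. Subtraction of B cell RNA left fewer of the genes lower, with the counts given in the last section. In B cells the list summed to 5297 CPM in ActD sham and 1584 CPM at 3 dpi, and to 5255 and 1285 CPM in the cleaner B cells. Ifit3, an antiviral effector, was at 84.3 CPM in sham, 20.8 CPM at 3 dpi and 97.2 CPM at 14 dpi in the stricter set. Rtp4 was at 107, 15.5 and 73.1 CPM. The chemokine Cxcl10, also induced by interferon, was higher, at 17.1 and 120 CPM in sham and 3 dpi (2.81). In the stricter set the 30 genes summed to 1028 CPM in male and 4198 CPM in female cells of the ActD sham library, to 1457 and 2257 CPM at 3 dpi, and to 2205 and 5335 CPM at 14 dpi. Among male members 5 of 28 genes were higher and 6 lower (median 0.07), and among female members 1 of 29 was higher and 25 lower (median -2.16). The pooled decrease therefore did not hold within male cells, and the female value at 3 dpi in the stricter set rests on 25 cells. Each sex in each library may stand for few mice, and mouse and sex cannot be told apart.

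**Figure D5:**
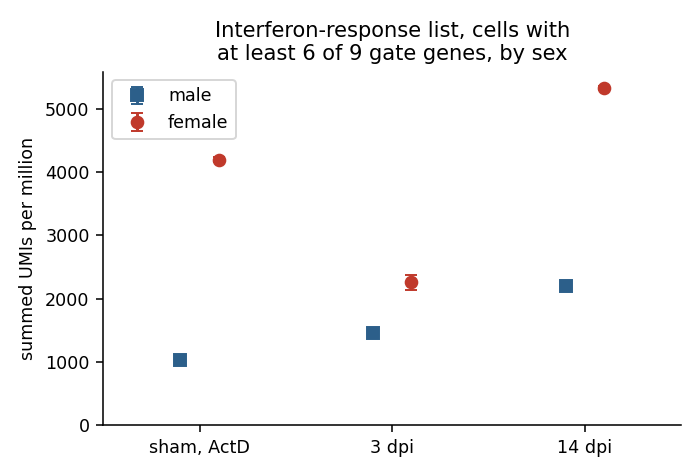
Summed level of the 30 interferon response genes (vertical axis, CPM) in male and female cells with at least 6 of the 9 microglial genes, in the ActD sham, 3 dpi and 14 dpi libraries. Female cells are above male cells in all 3 libraries, at 4198 against 1028 CPM in sham and 2257 against 1457 CPM at 3 dpi.

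In the stricter set the homeostatic genes summed to 117883 CPM in male and 112277 CPM in female sham cells and to 35469 and 27114 CPM at 3 dpi. The IEGs summed to 2189 and 2000 CPM in sham and to 8911 and 8515 CPM at 3 dpi, and the cytokines to 1462 and 1996 CPM and to 6464 and 6516 CPM. MHC class I genes, which present peptides to CD8 T cells, were lower in 9 of 18 and higher in 0 in both sets, with medians of -1.09 and -1.05 where all genes had -0.68 and -0.63, and 5 of 18 were lower in each with TMM scaling. B2m, their light chain, was at 3438 CPM in sham, 1147 CPM at 3 dpi and 3520 CPM at 14 dpi in the stricter set (-1.58), and H2-D1 at 1404, 436 and 1869 CPM (-1.69). H2-T23 was 8.85-fold lower in members. The MHC class I list summed to 7120 CPM in male and 10632 CPM in female sham cells and to 4551 and 5096 CPM at 3 dpi. In B cells the list summed to 10300 CPM in ActD sham and 4460 CPM at 3 dpi, and to 9382 and 4623 CPM in the cleaner B cells. Among male members 6 of 18 of its genes were lower, with a median of -0.76, and 37.0% of all genes were lower with a median of -0.65, so in male cells the list was near the background. Among female members 12 of 18 were lower with a median of -1.25, against 41.8% of all genes and -0.76. Of 14 MHC class II genes 7 were lower and 1 higher in members, and 4 and 2 in the stricter set (median -0.41, near 0 with TMM scaling), with Cd74 at 522 and 593 CPM.

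Where both classes together held 200 UMIs or more, the 15 genes with the largest ratios in members included Cxcl1, Cxcl3, Gpnmb, F7, Spp1, Timp1, Ptgs2, Cd5l, Npy, Cxcl2, Fabp5, Htr2b, Fn1 and Ppbp. F7, coagulation factor VII, had 1 UMI in sham and 1601 UMIs in 376 of 753 members. Cd5l, a secreted protein of tissue macrophages, had 417 UMIs in 133 members and was at 46.9 CPM in the stricter set against 5.72 CPM in macrophages. Ptgs2, which makes prostaglandins, was at 0.103 CPM in sham and 56.7 CPM at 3 dpi. Npy rested on few cells, with 159 UMIs in 13 cells of the stricter set and 78.0% of them in 1 cell.

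The 15 genes with the smallest ratios in members were Prss34, Retnla, Upk1b, Igfbp2, Mcpt8, Clec3b, Rgs5, Tmem204, Vtn, Ptn, Itih5, Asb2, Tlr12, Lag3 and Csmd3. Several of these rested on few sham cells. Prss34 and Mcpt8, proteases of basophils, had their sham UMIs in 13 and 21 of 1789 cells, Retnla in 7, Igfbp2 in 9, Clec3b in 8, Rgs5 in 16, Itih5 in 17, Vtn in 25 and Ptn in 29. Upk1b (302 cells), Asb2 (657), Tlr12 (349), Lag3 (1419) and Csmd3 (1374) were spread over the sham microglia. Lag3, an inhibitory receptor, was at 263 CPM in sham and 6.79 CPM at 3 dpi (-5.28), and Csmd3, a large membrane protein, at 226 and 6.05 CPM (-5.22). Asb2 was at 53.3 and 1.21 CPM.

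Several lists held genes on both sides, where 10.4% of all genes were higher and 37.7% lower in members. Of 34 phagocytosis and sensing receptors 11 were higher and 10 lower in members, and of 19 growth factors for repair 7 and 5. The counts were 8 and 4 of 21 genes of alternative activation, and 3 and 3 of 24 genes of ER stress and the amino acid response. In each of these lists the lower share was under that of all genes. Of the ER stress list 18 genes lay within 2-fold, and its higher share was near the background. Of a list of 12 stem, developmental and injury genes, several of which the study picked on these samples, so that the list is no independent evidence, 8 were higher and 1 lower in members, and 7 and 1 of 11 in the stricter set (median log2 ratio 1.61 in members). Spp1 carried nearly all of their sum. Nes (nestin), a filament protein of neural precursors, was at 20.1 CPM in sham, 14.5 CPM at 3 dpi and 33.9 CPM at 14 dpi in the stricter set. By the rule the log2 ratio of Nes to sham was -0.93, and without cells with at least 3 macrophage genes it was 0.44.

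Within the stricter set the cells differed widely from each other. The 294 cells with at least 3000 UMIs were thinned to that depth and divided into 3 groups of 98 by their summed UMIs of the homeostatic list, at 94 and 131 UMIs, and 124 of the 294 lay within 10% of a dividing value, so the groups are ranges and not types. The median score was 115.5 at 3 dpi and 352 in sham. From the lowest to the highest group Spp1 was at 28071, 13031 and 6939 CPM and Hmox1 at 2565, 772 and 531 CPM. Fabp5 was at 2929, 592 and 490 CPM. So injury genes were highest where homeostatic genes were lowest, and in the highest group Spp1 and Hmox1 were above sham (33.0 and 36.9 CPM). Spp1 was at 16388 CPM in 3 dpi B cells and 4720 CPM in the cleaner B cells, so the highest group lay between them. Hmox1 had a mean of 18.2 UMIs per B cell and 1.505 per cleaner B cell. Neither gene is thus set apart from free RNA in that group. Apoe hardly moved, at 19316, 20901 and 17724 CPM. The chemokine Ccl3 was lowest in the lowest group and highest in the middle one, at 371, 905 and 776 CPM, and the sum of IEGs was 7707, 9221 and 9908 CPM. Other measures moved along the same order. The sum of the markers of monocyte-derived macrophages was 4602, 2034 and 1602 CPM, the median depth was 25930.5, 17366 and 10466.5 UMIs, and 75%, 88.4% and 97.1% of called cells were male. Their part in this order was not tested.

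Spp1, Hmox1 and Ccl4 were above sham in each narrower set of cells. For Spp1 and Hmox1 this does not set the cells apart from free RNA, since 3 dpi B cells were above sham microglia too. Spp1 was at 16388 CPM in 3 dpi B cells and 4720 CPM in the cleaner B cells. Hmox1 had a mean of 18.2 UMIs per B cell, 1.505 per cleaner B cell and 0.401 per sham cell of the stricter set. Spp1 was at 21149 CPM in the 295 cells, 20653 CPM in the 238 left after removal of likely doublets, 19243 CPM in the 172 male cells and 19834 CPM in the 123 cells with fewer than 3 macrophage genes. In the 39 cells with all 9 microglial genes it was at 11966 CPM, against 5.68 CPM in sham cells with all 9. That level lay below the B cells and above the cleaner B cells. Hmox1 was at 1894, 1949, 1766, 1377 and 1415 CPM in the same order. Ccl4 was at 1278, 1384, 1451, 1514 and 1139 CPM. Without cells with at least 3 macrophage genes, Fabp5 was at 826 CPM in place of 1931 CPM, Gpnmb at 210 CPM in place of 498 CPM, and Cxcl2 at 284 CPM in place of 561 CPM.

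Against 3 dpi macrophages, 806 of 10878 genes were at least 2-fold higher in the stricter set (7.41%) and 1043 lower (9.59%). Of 35 homeostatic genes outside the rule 29 were higher and 0 lower. Fcrls was 12.7-fold and Cx3cr1 11.5-fold higher. The 8 genes with the largest ratios were Sall3, Npnt, Nav3, Fam167b, Ctsf, Crybb1, Ecscr and Capn3. Sall3, a relative of Sall1, was at 34.2 CPM in the stricter set and 1.07 CPM in macrophages, Nav3 at 89.1 and 2.91 CPM, and Ecscr at 125 and 5.403 CPM. Matrix genes were higher in 4 of 36 and lower in 21, cytokines higher in 4 of 30 and lower in 18, and 14 of 15 markers of monocyte-derived macrophages were lower. Macrophages were defined by few microglial genes, so the first of these differences follows in part from the gates. The 8 smallest ratios included those of Stfa1, Camp, Ngp, Dmkn, Ltf, Retnlg and Inhba, of which Camp, Ngp, Ltf and Retnlg are products of neutrophil granules or neutrophils.

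Cells that the rule set aside as cycling were compared with the members. By the same gate 871 cells held at least 3 of the 8 cell cycle genes at 3 dpi, or 53.6% of the gated cells against 2.51% in sham, and with at least 6 microglial genes the shares were 67.6% and 2.21%. Cycling cells of the stricter gate had a median of 33109 UMIs against 17169 in the non-cycling cells, and a deeper cell has more chances to pass either count of genes. The shares rest on genes of the rule and were not taken at equal depth, so they describe the gate and do not measure how many microglia were dividing. Of 10701 genes 139 were at least 2-fold higher in the non-cycling cells of the stricter set (1.30%) and 519 lower (4.85%). Of 31 genes of S phase and mitosis outside the rule 23 were lower and 0 higher. Of 35 homeostatic genes 0 were lower and 0 higher. Spp1 was at 21149 CPM in non-cycling and 24404 CPM in cycling cells, and Hmox1 at 1894 and 2521 CPM. Leading genes on the lower side were Esco2, at 0 UMIs against 25.1 CPM, Aspm, Hist1h2an, Depdc1a, Hist1h2ab, Pbk and Melk, which act in replication, chromatin and mitosis. On the higher side 4 of the 8 leading genes were interferon-induced, Ifit1 at 18.0 and 5.14 CPM, Ifit2, Ifit3 and Rsad2, beside Usp35, Sult1a1, Slc1a3 and Gzma, and of the 27 interferon genes tested 5 were higher and 0 lower. Against sham, members of the non-cycling gate still had 9 of 28 of the S phase and mitosis genes higher and 3 lower. Of 28 genes of ribosome biogenesis and Myc 2 were higher and 2 lower against sham, with Myc at 22.9 CPM in sham and 9.41 CPM at 3 dpi (-1.28, a sign that each subtraction of free RNA turned).

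From 3 to 14 dpi the injury genes parted. Of 11650 genes 825 were at least 2-fold higher in the stricter set at 3 dpi (7.08%) and 1315 lower (11.3%). The 8 genes with the largest ratios included Cxcl1, F7, Ccl7, Pdpn, Emp1, Npy and Cbr2, with Ccl7 at 207 CPM at 3 dpi and 2.62 CPM at 14 dpi. Hmox1 was 24.3-fold and Spp1 6.81-fold higher at 3 dpi, while Apoe was 3.86-fold lower. IEGs were higher at 3 dpi in 21 and lower in 0 of 24, cytokines higher in 16 of 32 and lower in 3, and matrix genes higher in 15 of 36 and lower in 6. Disease-associated genes were higher in 5 of 29 and lower in 10, interferon genes higher in 0 of 30 and lower in 24, and MHC class I genes lower in 11 and higher in 0. Homeostatic genes were lower at 3 dpi in 5 of 36 and higher in 0. On the lower side Tmem163, Xcl1, Cxcl9, Trim30c and Ly6g were at 0 UMIs at 3 dpi, and Camp, Ltf and Ngp, all of neutrophil granules, had 14, 7 and 25 UMIs. The growth factor Igf1 was at 3.57 CPM in sham, 68.6 CPM at 3 dpi and 180 CPM at 14 dpi. Sex was more even at 14 dpi than at 3 dpi, and the Cell Ranger version differs between these libraries too.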

How the data were processed

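CD45+ cells of 4 libraries (sham with standard dissociation, sham with ActD, 3 dpi and 14 dpi, 1 library each) were analysed. The deposited matrices of the authors hold raw UMI counts, made per the labels with Cell Ranger on mm10, without normalization and before the filters of the study. Barcodes were kept from 600 genes upwards and up to 10% mitochondrial UMIs, and no doublet caller was used in the main analysis. UMIs were summed per class and library and scaled to 1000000 (CPM). Genes with at least 50 UMIs in a pair of classes were compared, and a ratio of at least 2-fold stood in for a test, since 1 library per group allows none. A ratio to 0 UMIs was a bound at 3 UMIs. Gene lists (37, of 662 genes, 661 matched) and the members were chosen with earlier results of these data known. Genes named beyond the lists were the 15 largest and 15 smallest ratios to sham and the 8 largest and 8 smallest of each other comparison, among genes with at least 200 UMIs, without genes of the rule, sex-linked genes of the sex call, mitochondrial, haemoglobin, ribosomal protein and immunoglobulin genes. Those of Pdpn, Emp1, Camp and the like come from this rule for the stricter set, which was set beside the rule after the counts at its threshold had been seen. Random thinning used seed 1. Cells with Y-linked UMIs but no Xist UMI were called male, the reverse female, and the rest were left uncalled.

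Python 3.11.15 (numpy 2.4.6, scipy 1.17.1, pandas 2.3.3, scanpy 1.11.5, matplotlib 3.10.9) and R 4.3.3 with edgeR 4.0.16, for TMM factors only, were used. Positions come from GENCODE on GRCm38 and promoters from RefSeq GRCm38.p6. The computation of ratios was tested on simulated data. Alternatives were other gates, filters and scalings, removal of likely doublets, of cells with macrophage genes or of 1 sex, and subtraction of B cell RNA as an estimate of free RNA. Flow cytometry, staining and knockout experiments were not analysed here, and some genes are not reported here. The text of the series names Drop-Seq and the methods of the study name 10× Chromium.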

Additional observations from a re-analysis of the deposited data

How the results depend on the processing

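No paired analysis was possible because each condition has 1 library, and for the same reason no replicate could be left out. The number of genes at least 2-fold higher at 3 dpi than in sham ActD (1182) became 764 without cells with at least 3 macrophage genes, and 747 and 719 in the stricter set for males alone and without such cells. It became 2018 with TMM scaling, 2160 with median-of-ratios scaling and 2494 with more than 1 UMI in place of the 50-UMI filter. Subtraction of B cell RNA gave 5817 (cleaner B cells 5090), and 5513 and 4785 in the stricter set. The number of genes at least 2-fold lower at 3 dpi than in sham ActD (4274) became 2274 with TMM, 1967 with TMM in the stricter set, 2113 with median-of-ratios scaling and 6664 without the 50-UMI filter. The share of members at 3 dpi (7.90%) became 17.1% with at least 3 genes, 3.096% with at least 6, 5.31% after thinning, 7.28% with the stricter filter and 1.96% with no cell cycle gene. In sham (81.2%) it became 83.6%, 78.3%, 79.2% (thinned), 81.5% (stricter filter) and 76.0% in the same order, and 79.2% with the looser filter, which gave 7.46% at 3 dpi. The percent of filtered cells in the gate, 14 dpi, was 51.1%, 37.7%, 36.8%, 48.9954% (stricter) and 37.4% in the same order, and 46.0% (looser). Lower homeostatic genes numbered 19 with TMM in the stricter set. Higher matrix genes became 12 and higher cytokines 11 in the stricter set after B cell subtraction, and cytokines 13 without cells with macrophage genes. Lower interferon genes (23) became 6 in males, 3 in males of the stricter set, 14 and 13 with TMM, 14 with median-of-ratios scaling, and 2, 11, 1 and 8 under the 4 subtractions. Against macrophages the rule gave 455 higher and 624 lower genes, and the stricter set 806 and 1043. Against cycling cells the rule gave 108 higher and 682 lower, and 179 higher with at least 5 cell cycle genes. Against 14 dpi it gave 1178 higher and 1911 lower, and 1236 lower with thinned gates. The mean of B cells as a percent of that of members was 30.1% for Spp1 and 24.6% for Hmox1, 2.55% and 2.03% with the cleaner B cells, and the shares of B cells with a UMI after thinning to 2000 UMIs were 100% and 72.7%. Of 67 genes followed, 60 kept their sign under every alternative that gave a value, which were 8 to 21 per gene. Hif1a kept it in 20 of 21 (lowest -0.027), Nes in 18 of 21 (highest 0.44) and Fcrls in 14 of 21 (highest 0.63). Myc (-1.28) turned to 0.92, 3.61, 0.35 and 2.15 under the 4 subtractions, Mcpt8 to 0.064 in males of the stricter set, Ly6c1 to 0.87 and 1.06 in males of both sets, and Ltf to 0.21 with no cell cycle gene. The causes were not tested.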
